A study of Mus musculus with 6 samples.

Results

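The genes described here encode proteins of the lens fiber cell and transcription factors of the lens, measured in mouse retinal RNA. There were 9 of them (Mip, Lim2, Bfsp1, Bfsp2, Grifin, Gja3, Foxe3, Pitx3 and Sox1), chosen by symbol with earlier results of these libraries known. For 8 of the 9, all but Bfsp1, a transcript was listed for all 6 libraries, out of 25935 genes for which that held. The choice drew in part on the same libraries, so the levels and differences of these genes are given as a description, with no test of their own.

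RNA-seq was carried out on 3 libraries of the NMDA + PBS group and 3 of the NMDA + SCF group, from retinas of wild type C57BL/6 mice (C57BL/6J in the study's methods) whose age the labels give as 5 weeks. All 6 libraries came from eyes given NMDA, an agonist of glutamate receptors that injures retinal ganglion cells, as 2 μl of 100 mM into the vitreous. The NMDA + SCF eyes received stem cell factor (SCF, which binds the receptor c-kit, 2 μl at 50 ng/μl) 2 days later, the controls received PBS, and retinas were collected 1 week after that injection. Eyes without NMDA were not analysed here, the labels mention SCF in the treatment text of every sample, and the number of mice behind a library was not given, so the spread between libraries may be technical.

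The lens is a clear body with a sheet of epithelial cells over its front and elongated fiber cells filling the rest. Fiber cells form from the epithelium at its equator and then make large amounts of crystallins, of the water channel and gap junction proteins of their membrane, and of beaded filaments, an intermediate filament found in the lens. The forkhead factor Foxe3 is a marker of the lens epithelium, Pitx3 is a homeodomain factor needed in the lens epithelium and early fibers, and Sox1 is a factor of the fibers that acts on gamma-crystallin genes. None of these compartments belongs to the retina. The files hold no lens sample, so a library is described by which genes it carried, not by a distance to a lens profile.

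The promoters of 2 abundant fiber genes and of the 2 epithelial regulators are shown because these 4 genes carry the comparison of fiber with epithelium below. Each sequence is the 250 bases before the RefSeq start site on GRCm38.p6, written 5′ to 3′ on the strand of the gene, with matches to the motifs searched in capitals. The positions are chr10:128225560-128225809 on the plus strand for Mip, chr5:140565068-140565317 on the minus strand for Grifin, chr4:114926068-114926317 on the minus strand for Foxe3 and chr19:46148326-46148575 on the minus strand for Pitx3.
Mip: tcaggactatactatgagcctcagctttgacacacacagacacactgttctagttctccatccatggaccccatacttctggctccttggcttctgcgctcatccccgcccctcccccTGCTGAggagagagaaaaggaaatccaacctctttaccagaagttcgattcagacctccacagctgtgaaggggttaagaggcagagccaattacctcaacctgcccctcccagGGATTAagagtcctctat
Grifin: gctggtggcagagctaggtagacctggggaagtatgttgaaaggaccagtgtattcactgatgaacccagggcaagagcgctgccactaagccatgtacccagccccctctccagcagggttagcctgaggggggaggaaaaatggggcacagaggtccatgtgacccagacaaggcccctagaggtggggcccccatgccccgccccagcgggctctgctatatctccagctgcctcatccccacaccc
Foxe3: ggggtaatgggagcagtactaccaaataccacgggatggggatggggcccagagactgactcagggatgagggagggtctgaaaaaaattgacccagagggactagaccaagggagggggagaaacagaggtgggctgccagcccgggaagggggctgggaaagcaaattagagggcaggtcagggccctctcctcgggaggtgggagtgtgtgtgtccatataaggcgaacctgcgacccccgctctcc
Pitx3: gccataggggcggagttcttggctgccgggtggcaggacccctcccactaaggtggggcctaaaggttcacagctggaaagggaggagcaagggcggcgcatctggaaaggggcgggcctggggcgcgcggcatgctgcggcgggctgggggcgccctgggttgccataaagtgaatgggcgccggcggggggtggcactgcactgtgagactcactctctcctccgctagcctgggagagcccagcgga

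6 motifs were searched on both strands, and their frequency is given among all 32851 RefSeq promoters of this length. The core of the MAF recognition element, TGCTGA, was present in 16.1% of them, and the PITX site TAATCC was present in 6.25%. The SOX site AACAAT was present in 9.42%, and the homeodomain core sequence TAATTA in 4.84%. The FOX site TGTTTAC was present in 3.17%, and the TATA box sequence TATAAA in 12.4%. The Mip promoter held TGCTGA, beginning 132 bases before the start, and TAATCC on the opposite strand (printed as GGATTA), beginning 18 bases before it. The windows of Grifin, Foxe3 and Pitx3 held none of the 6 strings. TGCTGA was also present, on the opposite strand, in the windows of Lim2 and Bfsp1. These matches are letters in a window and were not measured as binding sites.

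The values are FPKM (fragment number divided by transcript length and by library total), summed per gene over the Ensembl transcripts listed for all 6 libraries. FPKM is scaled to transcript length, so levels can be set side by side between genes. Multiplied by transcript length, 98.4 to 98.5% of the values above 0 came out as whole fragments (within 0.05 of a fragment), and these recovered fragments give the depth behind each value. The counted fragments numbered 3404336 to 4440581 per library, and intervals on them cover counting error only. In bulk RNA, fewer cells of a type and less RNA per cell cannot be told apart. The files use a pair of transcript lists, list A for NMDA + PBS replicate 1 and the 3 NMDA + SCF libraries and list B for NMDA + PBS replicates 2 and 3, so list and group cannot be fully told apart. A comparison within list A has a single control library.

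The lens genes were high in 2 of the 3 NMDA + SCF libraries. Their fragments together made up 813.7 per 1000000 counted fragments (95% Wilson interval 784.1 to 844.5) in NMDA + SCF replicate 1 and 1232 (1196 to 1270) in replicate 3. In NMDA + SCF replicate 2 they made up 45.4 (38.9 to 53.1). In NMDA + PBS replicates 1, 2 and 3 they made up 5.29 (3.34 to 8.36), 15.1 (11.7 to 19.4) and 38.3 (32.9 to 44.5). The interval of NMDA + SCF replicate 2 thus overlapped that of NMDA + PBS replicate 3, while replicates 1 and 3 lay far above all others.

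**Figure D1:**
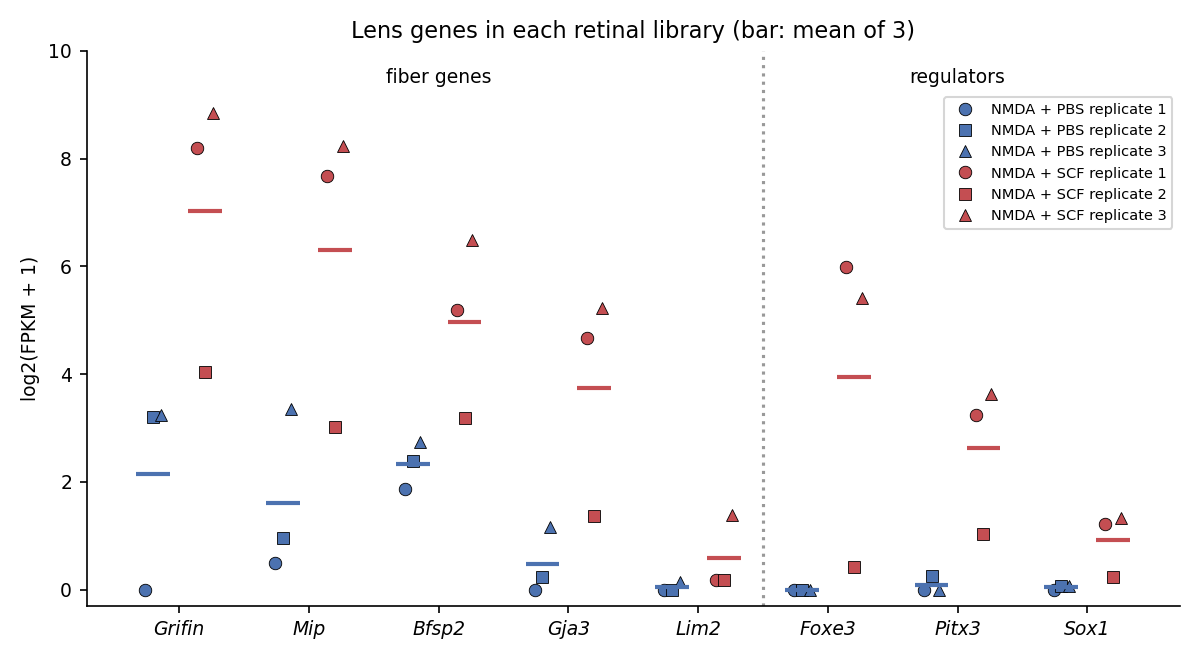
Level of each of the 8 lens genes with a value in all libraries, as log2(FPKM + 1), for 3 NMDA + PBS (blue) and 3 NMDA + SCF (red) libraries, with replicates 1, 2 and 3 as circle, square and triangle and the mean of 3 as a bar. The 2 top points of every gene are NMDA + SCF replicates 1 and 3, and NMDA + SCF replicate 2 lay near the controls.

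Mip encodes aquaporin 0, the water channel and most abundant membrane protein of lens fibers (chromosome 10, 128225838 to 128231812, plus strand, GRCm38, 4 exons). It stood at 0.411, 0.938 and 9.24 FPKM in NMDA + PBS replicates 1, 2 and 3. In NMDA + SCF replicates 1, 2 and 3 it stood at 203.0, 7.10 and 299.1 FPKM. The groups overlapped, since NMDA + SCF replicate 2 was below NMDA + PBS replicate 3. The difference of mean log2(FPKM + 1) was 4.70 ± 1.40 (moderated SE, n = 3 per group). This SE, here and for the genes below, comes from the limma fit across all genes. That fit draws the variance of each gene toward a trend over all genes, so the SE is not the spread of these libraries alone. The last exon of Mip lies across the antisense lincRNA Gm26847, which shares 57.0% of the exon bases of Mip and is in list B only, with 12 and 17 fragments in NMDA + PBS replicates 2 and 3. No strand setting is stated for the counting, and with these fragments added to those of Mip, replicates 2 and 3 would hold 20 and 105 in place of 8 and 88, against 1491, 53 and 2218 in the NMDA + SCF libraries.

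Grifin encodes a galectin-related soluble protein of the fiber cell that has lost sugar binding (chromosome 5, 140563119 to 140565071, minus strand, 5 exons). It was listed at 0 in NMDA + PBS replicate 1 and stood at 8.20 and 8.45 FPKM in replicates 2 and 3. It was at 292.8, 15.5 and 457.5 FPKM across NMDA + SCF replicates 1, 2 and 3, the highest level of any of the lens genes in each of these 3 libraries. The groups did not overlap, and the difference was 4.88 ± 1.38 on the log2(FPKM + 1) scale. Between NMDA + PBS replicates 2 and 3 the level of Grifin was nearly equal, at 20 and 23 fragments, where Mip went from 8 to 88.

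Gja3 encodes connexin 46, a gap junction protein of the fiber membrane (chromosome 14, 57034460 to 57058100, minus strand). It was listed at 0 in NMDA + PBS replicate 1 and stood at 0.182 and 1.22 FPKM in replicates 2 and 3. The NMDA + SCF libraries held 24.4, 1.56 and 36.2 FPKM. All 3 were above all controls, by 3.28 ± 0.96 on the log2(FPKM + 1) scale, but replicate 2 exceeded NMDA + PBS replicate 3 by a ratio of 1.28 with an exact interval of 0.581 to 2.80 (15 fragments in each). A second, short coding transcript of 284 bases was in list A only and held at most 3 fragments in any library.

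Bfsp2 encodes phakinin, a subunit of the beaded filament (chromosome 9, 103424924 to 103480420, minus strand, 7 exons). It stood at 2.65, 4.24 and 5.69 FPKM in the NMDA + PBS libraries, on 15, 28 and 42 fragments. It stood at 35.6, 8.13 and 88.9 FPKM in the NMDA + SCF libraries. The groups did not overlap, and the difference was 2.63 ± 0.76 on the log2(FPKM + 1) scale. In NMDA + PBS replicate 1, where Grifin, Gja3 and every regulator were listed at 0 and Mip had 3 fragments, Bfsp2 was the most abundant of the genes. Antisense transcripts of 5830418P13Rik overlap 11.8% of the exon bases of Bfsp2 and held at most 4 fragments.

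For the other 2 fiber genes the files hold little of the coding transcript. Lim2 encodes MP20, a fiber membrane protein (chromosome 7, 43427670 to 43435996, plus strand). Its only transcript with values here is a retained-intron form of 2180 bases, which shares 40.3% of its exon bases with the coding transcript of 884 bases, and the coding transcript was not analysed here. The retained-intron form held 0, 0 and 1 fragments in the NMDA + PBS libraries and 1, 1 and 12 in the NMDA + SCF libraries, the 12 being 1.59 FPKM in replicate 3. Bfsp1 encodes filensin, the partner of phakinin in the beaded filament (chromosome 2, 143826528 to 143863173, minus strand). Its value comes from 1 of 2 coding transcripts, in list A only, with 2 fragments in NMDA + PBS replicate 1 and 0, 0 and 3 in NMDA + SCF replicates 1, 2 and 3. This transcript had 3 fragments beside 511 of Bfsp2 in NMDA + SCF replicate 3, and 90.3% of the exon bases of this transcript are shared with the coding form not analysed here.

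Foxe3 (chromosome 4, 114925147 to 114926013, minus strand, 1 exon) had no fragment in any of the 3 NMDA + PBS libraries. Its level was 62.3, 0.331 and 41.7 FPKM in NMDA + SCF replicates 1, 2 and 3, or 185, 1 and 125 fragments. Replicates 1 and 3 were thus high, and replicate 2 rested on 1 fragment. Against a floor of 3 fragments over the NMDA + PBS group, the pooled NMDA + SCF fragments were at least 118-fold higher at equal depth. Without NMDA + SCF replicate 1, 2 or 3 this bound was 71.6-fold, 177-fold or 106-fold, and each of these keeps a high library. With NMDA + SCF replicate 2 alone for its group, the difference was 0.41 on the log2(FPKM + 1) scale.

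Pitx3 (chromosome 19, 46135685 to 46148326, minus strand, 4 exons) had 0, 1 and 0 fragments in the NMDA + PBS libraries. It had 40, 5 and 54 fragments in the NMDA + SCF libraries, at 8.46, 1.04 and 11.3 FPKM. The groups did not overlap, and the pooled ratio at equal depth was 113 with an exact interval of 19.8 to 4505. The interval is wide because the controls held 1 fragment, and it covers counting error, not the spread between libraries. The convergent gene Elovl3 shares 10 bases with the end of Pitx3 and held at most 1 fragment.

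Sox1 (chromosome 8, 12395295 to 12400126, plus strand, 1 exon) had 0, 1 and 1 fragments in the NMDA + PBS libraries. It had 22, 3 and 25 in the NMDA + SCF libraries, at 1.33, 0.178 and 1.496 FPKM, the lowest level of the 3 regulators in all 3 libraries. The groups did not overlap, and the pooled ratio at equal depth was 28.5 (exact interval 7.49 to 242, for counting error only). The long RNA Sox1ot, named here after its values were seen, runs on the same strand with Sox1 in an intron and shares none of its exon bases. It held 0, 0 and 4 fragments in the NMDA + PBS libraries and 17, 0 and 25 in the NMDA + SCF libraries.

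Over the 8 genes, the mean log2(FPKM + 1) was higher in NMDA + SCF for 8 of 8, where 49.1% of the 25202 genes tested had a positive difference. All 3 NMDA + SCF libraries were above all 3 NMDA + PBS libraries for 7 of 8, where this held for 7.63% of all genes. In 8 of 8 the top 2 libraries were NMDA + SCF replicates 1 and 3, where this held for 7.27% of all genes. These counts are printed for scale only, since the genes were chosen on this contrast. Some of the orders rest on few fragments. Lim2 had 1 fragment in each of NMDA + PBS replicate 3 and NMDA + SCF replicates 1 and 2. Gja3 had 15 fragments in both NMDA + SCF replicate 2 and NMDA + PBS replicate 3. Foxe3 had 1 fragment in NMDA + SCF replicate 2 against 0 in the controls. The median difference was 2.95 over the 8 genes and -0.01 over all genes, and it was 0.87 when NMDA + SCF replicate 2 stood alone for its group. In list A alone, all 3 NMDA + SCF libraries exceeded NMDA + PBS replicate 1 for 8 of 8 genes, 6 of which were at 0 in that control, where this held for 23.8% of all genes.

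The fit across all genes (limma on log2(FPKM + 1), Benjamini-Hochberg adjustment) called 0 of 25202 genes, or 0%, at an adjusted p of 0.001 or less together with a 2-fold change or more, so no lens gene was called. At an unadjusted p of 0.05 there were 2324 genes, 1090 higher in NMDA + SCF (4.33% of all genes tested) and 1234 lower. With upper quartile scaling the split was 643 higher and 1554 lower, and voom on recovered fragments also called 0 genes. Leaving out NMDA + PBS replicate 1, which leaves list B as the only control list, gave 191 calls, none of them among these genes.

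The mixture of the genes differed between libraries. Grifin and Mip made up 46.6% and 32.3% of the summed FPKM of the 8 genes in NMDA + SCF replicate 1, and 48.8% and 31.9% in replicate 3. Bfsp2 made up 5.68% and 9.48% in these libraries, 23.9% in NMDA + SCF replicate 2, and 86.6%, 30.7% and 23.0% in NMDA + PBS replicates 1, 2 and 3. Thus the share of Bfsp2 was larger in the 4 libraries with few lens fragments.

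**Figure D2:**
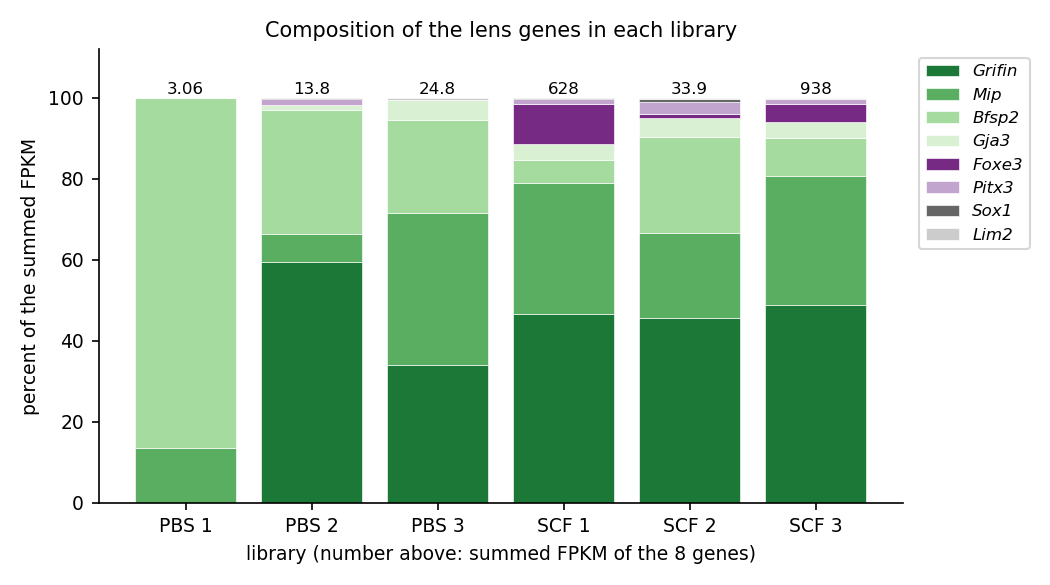
Share of each of the 8 lens genes in their summed FPKM, as stacked bars from 0 to 100%, for each library, with the sum in FPKM above each bar. Grifin and Mip (dark green shades) make up most of NMDA + SCF replicates 1 and 3, Bfsp2 makes up 86.6% of NMDA + PBS replicate 1, and Foxe3 (purple) is visible at 9.92% and 4.45% in NMDA + SCF replicates 1 and 3.

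Each fiber gene was also set against Mip within its library. The FPKM ratio of Gja3 to Mip was 0.120 in NMDA + SCF replicate 1, 0.121 in replicate 3 and 0.132 in NMDA + PBS replicate 3. It was 0.219 in NMDA + SCF replicate 2 and 0.194 in NMDA + PBS replicate 2, and Gja3 had 15 fragments in both NMDA + SCF replicate 2 and NMDA + PBS replicate 3. The ratio of Grifin to Mip was 1.44 and 1.53 in NMDA + SCF replicates 1 and 3, 2.18 in replicate 2 and 0.914 in NMDA + PBS replicate 3. In NMDA + PBS replicates 1 and 2 it was 0 and 8.74, on 0 and 20 fragments of Grifin. The ratio of Bfsp2 to Mip was 0.176 and 0.297 in NMDA + SCF replicates 1 and 3, 1.14 in replicate 2 and 0.616 in NMDA + PBS replicate 3. In the other two controls, with 3 and 8 Mip fragments, it was 6.45 and 4.52.

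The balance of fiber and epithelial genes was taken as the fragments of Foxe3 and Pitx3 among those of the fiber genes, Foxe3 and Pitx3. Since Pitx3 is also needed in early fibers, its fragments do not mark the epithelium alone. In NMDA + SCF replicate 1 the epithelial share was 8.13% (exact 95% binomial interval 7.14 to 9.22, 225 of 2766 fragments). It was 4.23% in NMDA + SCF replicate 3 (3.64 to 4.88, 179 of 4236). The 2 libraries thus both carried fiber and epithelial genes, and their intervals did not overlap, with the larger epithelial share in replicate 1. In NMDA + SCF replicate 2 it was 3.87% on 6 of 155 fragments (1.43 to 8.23), of which 5 were Pitx3. In NMDA + PBS replicate 3 it was 0 of 169, which allows a share of up to 2.16%, so this control library carried fiber genes with no fragment of Foxe3 or Pitx3. NMDA + PBS replicates 1 and 2 held 0 of 18 and 1 of 59, with exact upper limits of 18.5% and 9.09%, so their intervals include the share of NMDA + SCF replicate 1.

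On the FPKM scale the log2 ratio of fiber to epithelial genes was 2.97 in NMDA + SCF replicate 1, 4.56 in replicate 2 and 4.06 in replicate 3. It was 6.22 in NMDA + PBS replicate 2, on 1 Pitx3 fragment, and could not be formed in the other two controls. The fiber sum was therefore above the epithelial sum wherever both were seen. Single genes did not all keep this order, since Foxe3 (62.3 FPKM) was above Bfsp2 (35.6) and Gja3 (24.4) in NMDA + SCF replicate 1 and above Gja3 in replicate 3 (41.7 against 36.2 FPKM). In NMDA + SCF replicate 2 the ratio rests on 6 epithelial fragments, and its place relative to replicates 1 and 3 was not settled by this depth.

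**Figure D3:**
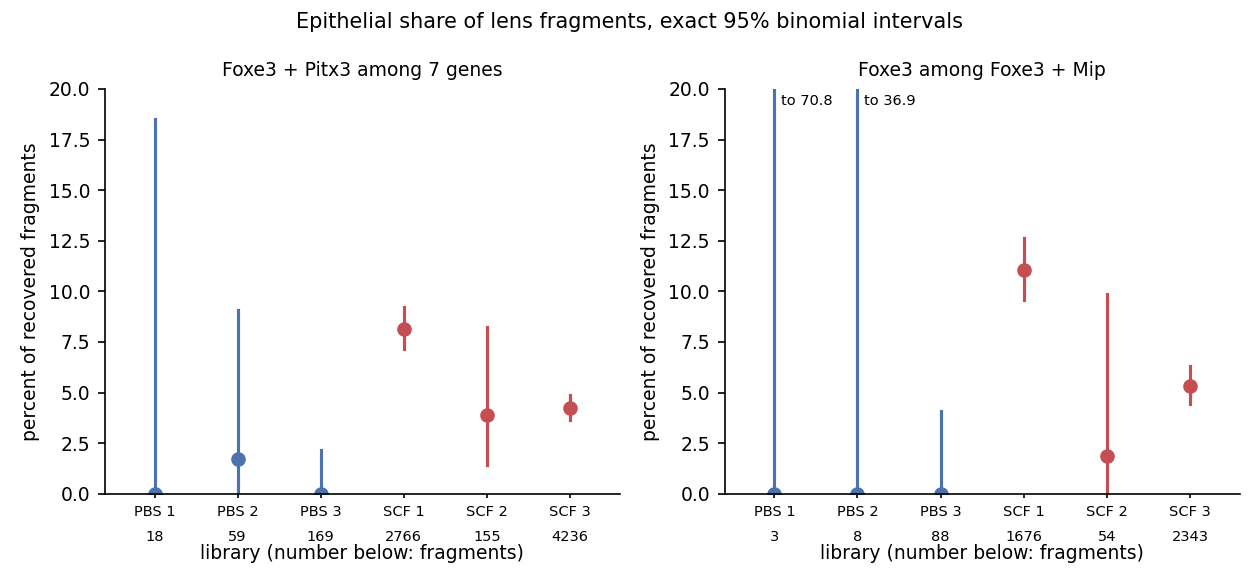
Percent of recovered fragments from epithelial genes in each library, as points with exact 95% binomial intervals, for Foxe3 and Pitx3 among 7 lens genes with values (left) and for Foxe3 among Foxe3 and Mip (right), with the number of fragments under each library. NMDA + SCF replicates 1 and 3 stand at 8.13% and 4.23% on the left, and the intervals of the shallow libraries are wide.

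With Foxe3 and Mip alone, Foxe3 made up 11.04% (9.58 to 12.6) of the fragments in NMDA + SCF replicate 1 and 5.34% (4.46 to 6.32) in replicate 3. It made up 1 of 54 in NMDA + SCF replicate 2, or 1.85% (0.0469 to 9.89), and 0 of 88 in NMDA + PBS replicate 3, which allows up to 4.11%. The upper limit of NMDA + PBS replicate 3 lay below both intervals of the 2 high libraries. Pitx3 among Pitx3 and Mip made up 2.61% (1.87 to 3.54) in NMDA + SCF replicate 1 and 2.38% (1.79 to 3.09) in replicate 3. The Pitx3 share thus overlapped between the 2 libraries where the Foxe3 share did not. It was 8.62% (2.86 to 19.0) in NMDA + SCF replicate 2, on 5 of 58 fragments.

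The ratio of NMDA + SCF replicate 3 to replicate 1 at equal depth set Foxe3 apart from the fiber genes. It was 1.47 for Mip (exact interval 1.38 to 1.57), 1.56 for Grifin (1.41 to 1.73) and 1.48 for Gja3 (1.25 to 1.76). For Bfsp2 it was 2.49 (2.12 to 2.95), above the intervals of these 3. For the retained-intron form of Lim2 it was 11.9 on 12 against 1 fragments (1.76 to 508). Foxe3 went the other way, at 0.669 (0.529 to 0.844). Pitx3 at 1.34 (0.872 to 2.07) and Sox1 at 1.13 (0.609 to 2.09) could not be placed on either side of 1. With 1 library each, these ratios compare the 2 libraries and not conditions.

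**Figure D4:**
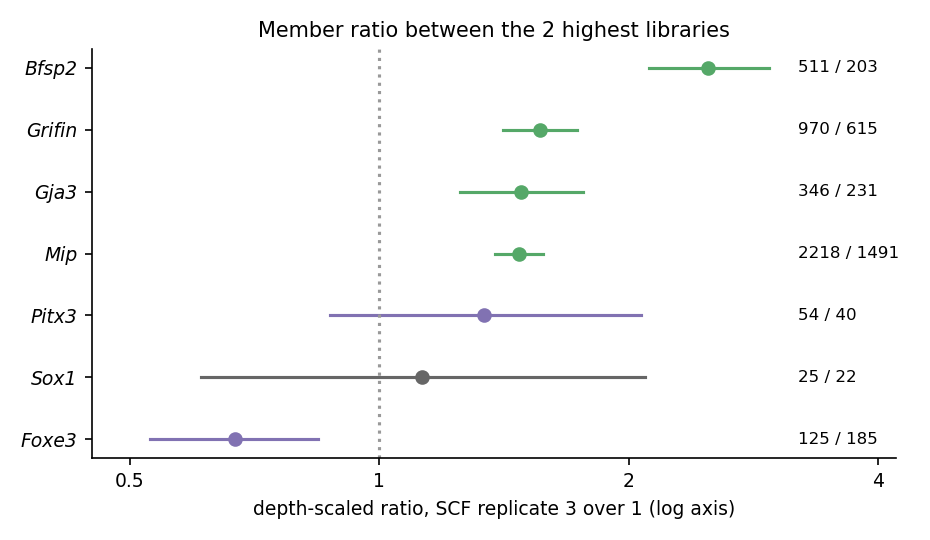
Ratio of recovered fragments in NMDA + SCF replicate 3 to those in replicate 1, scaled to equal depth, on a log axis, with exact 95% intervals and the fragments of both libraries at the right, for fiber genes (green), epithelial regulators (purple) and Sox1 (grey). The 4 fiber genes plotted lie above 1, from 1.47 to 2.49, and Foxe3 lies below it at 0.669. Lim2, at 11.9 on 12 against 1 fragments, is not plotted.

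NMDA + SCF replicate 2 and NMDA + PBS replicate 3 were close in the fiber genes. At equal depth the ratio of the former to the latter was 0.769 for Mip (exact interval 0.536 to 1.09), 1.43 for Bfsp2 (0.922 to 2.22), 1.28 for Gja3 and 1.83 for Grifin (1.04 to 3.27). Only the interval of Grifin, among these 4, lay above 1. The 2 libraries differed in Pitx3, with 5 fragments against 0 and an exact lower limit of 1.17 for the ratio.

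Other genes of the lens were read from lists that do not include the 9. Among 11 further fiber genes, 6 had a value in all libraries, and 1 of them was highest in NMDA + SCF replicates 1 and 3, against 7.27% of all genes. This was Lctl, a klotho-family protein of the lens, at 0 in the 3 controls and in NMDA + SCF replicate 2 and at 0.872 FPKM (3 fragments) and 3.04 FPKM (9 fragments) in the other two. The other 5 (Gje1, Caprin2, Prox1, Maf and Tmod1) did not have this pattern, and Prox1, Maf and Tmod1 are also expressed in retina. On list A the 6 genes summed to 17.5 FPKM in NMDA + PBS replicate 1 and 17.5 to 24.7 FPKM in NMDA + SCF. In NMDA + PBS replicates 2 and 3, on list B, they summed to 34.9 and 33.3 FPKM. Prox1 had 11 and 5 fragments in these list B libraries and 0 in those of list A. Caprin2 stood at 18.7 and 13.1 FPKM on list B and at 6.26 to 9.24 FPKM on list A. The part of the transcript list in these sums was not tested. Lgsn, which encodes the fiber protein lengsin, was in list B only, with 13 and 8 fragments in NMDA + PBS replicates 2 and 3.

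Among 7 further genes of the lens epithelium, 6 had a value and 1 had NMDA + SCF replicates 1 and 3 highest. This was Cdh1, the E-cadherin of epithelia, at 0.133, 0.511 and 0.356 FPKM in the NMDA + PBS libraries and 1.52, 0.130 and 1.63 FPKM in the NMDA + SCF libraries. Cdh1 thus showed the same 2 high libraries as Foxe3, at 23 and 25 fragments. The other 5 did not have this pattern. Pax6, Tfap2a and Mab21l1 are also expressed in retinal neurons. Sparc, a matrix protein, stood at 2.52 FPKM in NMDA + SCF replicate 1 but at 0.126 FPKM in replicate 3, below all controls, and Gja1, a gap junction protein, had at most 1 fragment in any library. The list summed to 123.7 to 176.7 FPKM in the controls and 192.2 to 202.4 FPKM in NMDA + SCF. Most of this sum was Mab21l1, at 79.6 to 151.9 FPKM in the controls and 152.3 to 160.8 FPKM in NMDA + SCF. Pax6 overlapped between the groups, at 20.2 to 48.5 FPKM and 30.4 to 42.4 FPKM. The sum is therefore no measure of lens epithelium. For crystallins, the soluble proteins of the lens, NMDA + SCF replicates 1 and 3 were highest in 10 of 11 genes with a value, against 7.27% of all genes. The crystallin sum was 29.2, 334.7 and 315.1 FPKM in the NMDA + PBS libraries and 4997, 641.8 and 11141 FPKM in the NMDA + SCF libraries.

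Genes of neighbouring eye tissues moved in differing ways. Markers of ciliary body and iris summed to 10.005 to 13.5 FPKM in the controls and 20.99 to 27.5 FPKM in NMDA + SCF. Of these, 4 of 5 genes were higher in all NMDA + SCF libraries, against 7.63% of all genes. For Otx1, among the 4, this rests on 4, 4 and 6 fragments against 1, 2 and 5 in the controls. NMDA + SCF replicate 2, with few lens fragments, had 20.99 FPKM on this list. The sum of cornea markers went the other way, at 13.1 to 46.3 FPKM in the controls and 3.13 to 11.98 FPKM in NMDA + SCF. Of these, 3 of 5 genes had a value, and none was higher in all NMDA + SCF libraries. Krt12 overlapped between the groups, at 2.38 to 13.3 FPKM and 1.10 to 6.71 FPKM. Krt5 (9.36 to 30.2 FPKM and 1.86 to 5.26 FPKM) and Krt14 (1.38 to 3.55 FPKM and 0 to 0.172 FPKM) did not. Markers of pigment epithelium summed to 196.1 to 844.0 FPKM and 734.7 to 963.2 FPKM, with none of 5 genes higher in all NMDA + SCF libraries. Most of this sum was Ttr, at 176.1 to 778.8 FPKM in the controls and 694.1 to 918.9 FPKM in NMDA + SCF. Rpe65 was at 0.405 to 1.26 FPKM and 0.771 to 1.24 FPKM, so the sum is no measure of pigment epithelium. The part of these tissues in the lens gene values was not tested. The labelled tissue was checked with the retinal lists. Over all libraries rods summed to 2761 to 3779 FPKM, Müller glia to 2019 to 3974 FPKM and retinal ganglion cells to 214.3 to 460.2 FPKM. The largest part of the rod sum was Pde6a (1155 to 1930 FPKM), and most of the Müller glia sum was Glul (1960 to 3899 FPKM). No defining marker with a value in all libraries was at 0 throughout.

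The genes whose levels across the 6 libraries were most like the mean of the lens genes were sought among 17771 genes with at least 1 FPKM in a library, by Pearson's correlation of log2(FPKM + 1). The correlations are descriptions over 6 points that share transcript lists and depth. Among the 10 highest were Wnt7a (r = 0.991), which encodes a Wnt ligand, and the crystallin genes Crybb2 (0.990), Cryaa (0.979) and Cryba2 (0.977). Wnt7a stood at 0.0926, 0.0793 and 0.142 FPKM in the NMDA + PBS libraries and at 3.96, 0.362 and 6.02 FPKM in the NMDA + SCF libraries. Gli2 (0.984), a transcription factor of hedgehog signaling, and Exoc6b (0.982), an exocyst subunit, also had NMDA + SCF replicates 1 and 3 highest, with small ranges of 2.74 to 5.36 FPKM for Gli2 and 19.6 to 25.2 FPKM for Exoc6b. In Gli2, NMDA + SCF replicate 2 (2.81 FPKM) was below NMDA + PBS replicate 3 (2.92 FPKM). Fam110b (0.977) had at most 7 fragments, and Gm16323 and Sox5os2 (both 0.978) had at most 3. Of the lens genes themselves, Bfsp2 (0.997) and Gja3 (0.995) lay closest to the mean they belong to, and Lim2 (0.799) lay farthest.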

How the data were processed

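Retinal mRNA was sequenced from 3 NMDA + PBS and 3 NMDA + SCF libraries. The deposited files give FPKM per transcript, computed by the authors for each library without pooling, with a table of clean reads (44925938 to 48783182 per library). The aligner, the counter and the strand setting are not given in the sources used here. The submitters' processing notes name build mm9, but 98.2% of 63313 transcripts had the positions of GENCODE M21, so coordinates are on GRCm38 from that annotation and promoters from RefSeq on GRCm38.p6, where all 9 genes matched by symbol. FPKM was summed per gene over 46933 Ensembl transcripts in both lists, leaving out 7529 in list A only, 8966 in list B only, and merged-assembly names without a gene (8.85 to 11.4% of the FPKM sum). Counted fragments were 14.1 to 18.2% of clean read pairs.

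log2(FPKM + 1) was compared with limma 3.58.1 in R 4.3.3 (variance trend, condition only, all 6 libraries, genes at 0 throughout left out), tested on simulated data. Shares and ratios used Python 3.11.15. Shares of lens fragments have exact Clopper-Pearson intervals and totals of lens fragments Wilson intervals, both at 95%. Genes and lists were chosen with earlier results of these data known. The text describes all 9 genes, list genes with a value, and the 10 other genes most correlated with their mean. Results for 1 gene are not reported here. Alternatives were other scalings, pseudocount, filter, transcripts, thresholds, voom, a replicate block, each library left out and other balance sums, and, added after the data were seen, median-of-ratios scaling, the fiber sum without Bfsp2, and NMDA + SCF replicate 2 alone.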

Additional observations from a re-analysis of the deposited data

How the results depend on the processing

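The number of genes called was 0 with upper quartile scaling, a pseudocount of 0.1, a filter of at least 1 FPKM in at least 3 libraries, all listed transcripts, voom, median-of-ratios scaling (chosen after seeing the data) and an adjusted p of 0.05, and 2324 at an unadjusted p of 0.05. With a library left out it ranged from 0 to 191, and the 191 arose without NMDA + PBS replicate 1. Replicate numbers did not pair the libraries. To see this, the group mean of each gene was taken off log2(FPKM + 1), for the genes passing that filter. What remained had correlations of -0.0549, -0.0583 and -0.0774 between same-numbered libraries of the groups. Between differently numbered libraries the correlations were 0.0193 to 0.0488. The replicate block gave 0 calls, with 1856 genes at an unadjusted p of 0.05 in place of 2324. At that threshold the split of higher and lower genes was 953 and 663 with the filter, 753 and 1457 with median-of-ratios scaling and 1433 and 1182 with voom.

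The median log2 difference over the lens genes (2.95) was 5.09 with a pseudocount of 0.1, 5.28 with voom and 0.87 without NMDA + SCF replicates 1 and 3, and ranged from 2.30 to 3.99 with a library left out. With transcript list as a term, which leaves 1 control library, it was 3.42. All 117 recomputed differences of single lens genes were above 0, which is no support, since the genes were chosen on this contrast. Each fit with 1 library left out also kept NMDA + SCF replicate 1 or 3. Of the 117, 100 moved by less than 1 SD between replicates, an SD that these libraries widen, and 17 moved further. Without NMDA + SCF replicates 1 and 3, Mip went from 4.70 to 1.42 and Foxe3 from 3.94 to 0.41, while Lim2 stayed within 1 SD. The log2 balance of fiber to epithelial genes in NMDA + SCF replicates 1 and 3 (2.97 and 4.06) was 3.50 and 4.502 from fragments, 2.32 and 3.46 without Mip, 1.90 and 3.01 without Grifin, and 1.70 and 2.84 for Mip against Foxe3. Replicate 1 was below replicate 3 under each of these. All of these values lay outside the counting interval of the balance of their own library, so its size depends on the genes and scale used. With all listed transcripts (2.98 and 4.06) and without Bfsp2 (2.88 and 3.91) the balance stayed inside that interval. The balance of replicate 2 stayed within its interval, which is wide. Depth limits the statements on Lim2, Bfsp1, Sox1 and the controls, which rest on few fragments. The cause of these shifts was not tested.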
